A study of Mus musculus with 3 samples.

Results

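Arg1-expressing macrophages were followed in the pancreas of mice given PBS or WGP. A cell was counted as a member when it held at least 1 unique molecular identifier (UMI) of Arg1, at least 1 UMI of Csf1r or Adgre1, and none of Cd79a, Cd3e or Cd3d. The study sequenced live CD45+ cells sorted from the pancreas, as 1 library per group. The groups were a PBS control, a group killed 3 days after a dose of WGP (3-day WGP) and a group killed 7 days after it (7-day WGP). WGP is a particulate β-glucan from Saccharomyces cerevisiae that was injected into the peritoneum. The methods describe young wild-type C57BL/6 mice of both sexes, but neither the sex nor the number of animals behind a library is stated in the labels. Members numbered 618 of 14302 kept barcodes, of which 309 came from 3-day WGP, 298 from 7-day WGP and 11 from PBS. Members were chosen by measured values, their own Arg1, Csf1r, Adgre1, Cd79a, Cd3e and Cd3d counts, so levels of these genes are a description. No difference below has a replicate check and no test was made, because each group is 1 library. Intervals are 95% exact intervals and cover counting error only.

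Arginase 1, the product of Arg1, splits arginine into ornithine and urea, and ornithine feeds the synthesis of polyamines and proline. The same arginine is used by inducible nitric oxide synthase, the product of Nos2, to make nitric oxide, so the enzymes draw on one substrate. Macrophages raise Arg1 after IL-4 or IL-13, in low oxygen, after uptake of dying cells and after some microbial stimuli, and Arg1-positive macrophages are well known from wounds and tumors. Group 2 innate lymphoid cells (ILC2) also express Arg1, which is why Csf1r (the receptor for colony-stimulating factor 1) or Adgre1 (F4/80) was required.

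Depth was 48219246 to 56849043 UMIs per library, and the median kept barcode held 5755 UMIs in PBS, 5754 at 3 days and 8077 at 7 days. Transcripts linked to sex were unequal between the libraries. Xist without a Y-linked transcript was found in 19 members at 3 days, 122 at 7 days and 10 in PBS (Xist cells). Y-linked transcripts without Xist were found in 219, 121 and 1 (Y-transcript cells). Sex and the day after WGP therefore cannot be told apart in the pooled values, and values within each class are given for the markers and for the main differences between the days. Few barcodes were shared between libraries, with 9 between PBS and 3-day WGP, 1 between PBS and 7-day WGP and 5 between 3-day and 7-day WGP, and 0 barcodes were members in both of a pair.

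Members made up 6.33% (5.67 to 7.05) of kept barcodes in 3-day WGP and 7.14% (6.38 to 7.96) in 7-day WGP, against 0.210% (0.105 to 0.375) in PBS. Macrophage-gated cells, which met the same rule with any Arg1 count, numbered 900 at 3 days, 1622 at 7 days and 1069 in PBS. Of these, 34.3% (31.2 to 37.5), 18.4% (16.5 to 20.3) and 1.03% (0.515 to 1.83) were members. The kept share was thus similar at both days, and the share of the gate was higher at 3 days. Within Xist cells of the gate the share was 21.3% (13.4 to 31.3) at 3 days and 20.0% (16.9 to 23.4) at 7 days, with intervals that overlap. Within Y-transcript cells it was 39.7% (35.6 to 44.0) and 18.5% (15.6 to 21.7). Arg1 detection depends on depth, and the median member held 17265 UMIs at 3 days and 13289 at 7 days, against 10779 and 10314 in Arg1-negative cells of the gate.

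Arg1 (ENSMUSG00000019987, GRCm38 chr10:24915221-24927484, minus strand) ranged from 1 to 287 UMIs per cell with a median of 17 at 3 days, and from 1 to 253 with a median of 11 at 7 days. There were 191 of 309 members with 10 or more Arg1 UMIs at 3 days and 162 of 298 at 7 days, while 46 and 53 rested on 1 UMI. Summed over members, Arg1 was at 1785 CPM and 1765 CPM (UMIs scaled to a total of 1000000). In cells gated as B cells, which should lack the gene, 1.48% at 3 days and 1.04% at 7 days held an Arg1 UMI. Their median depths were 6072.5 and 5420.0 UMIs. In PBS, 1.38% (0.920 to 1.99) of B cells held one, at a median depth of 4022.5 UMIs. The share of the PBS gate that were members, 1.03% (0.515 to 1.83), was not above this. Barcodes of at most 100 UMIs, which carry free RNA, held Arg1 at 163 CPM and 191 CPM. Members held 86.7% and 90.5% of the Arg1 UMIs of kept barcodes. In PBS they held 20.3%, since 261 of the 272 Arg1-positive barcodes there had neither Csf1r nor Adgre1, and 225 of these held at least 3 of the 8 ILC2 markers.

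**Figure D1:**
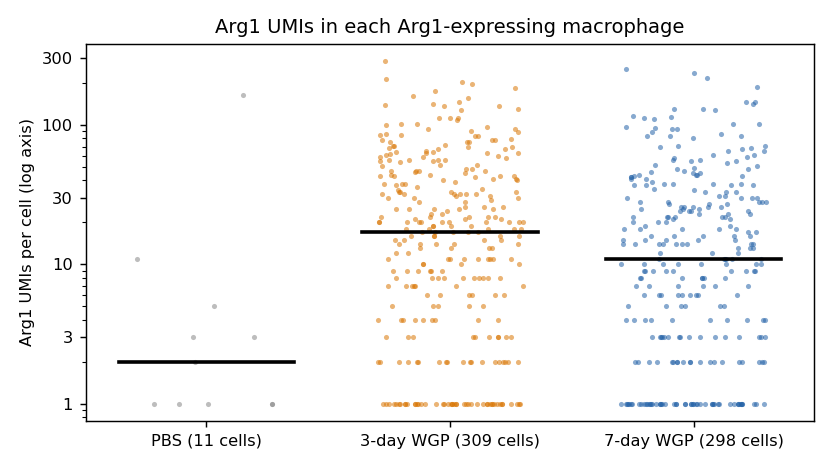
Arg1 UMIs in each member (log axis), with 1 point per cell, the 3 libraries on the x axis and the median as a black line. The medians were 17 at 3 days, 11 at 7 days and 2 in PBS, and 1 PBS cell at 165 UMIs stands above the other 10.

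The 11 PBS members were not alike. One cell held 165 of their 194 Arg1 UMIs. Saa3 was detected in 3 of them, at 345, 481 and 1174 UMIs, and the first 2 of these also held Marco (48 and 20 UMIs) and Prg4 (148 and 83 UMIs). At least 3 ILC2 markers were present in 6 PBS members, against 3 of 309 at 3 days and 0 of 298 at 7 days. Of the 11, 9 held Csf1r, 10 held Adgre1 and 8 held both, which the rule partly fixes. C1qa, which the rule did not use, was detected in 9 of them. Whether the cells with ILC2 markers are macrophages was not tested, and PBS is given below as values only.

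The genes named with Arg1 as markers were compared with Arg1-negative gated cells of the same library. Saa3, an acute-phase serum amyloid made locally by macrophages (ENSMUSG00000040026, chr7:46711998-46715700), was at 22591 CPM in 3-day members against 2975 CPM in Arg1-negative cells, and at 14423 CPM against 1349 CPM at 7 days. Marco, a scavenger receptor for particles (ENSMUSG00000026390, chr1:120474538-120505024), was at 611 CPM (590.3 to 631) against 69.8 CPM (63.5 to 76.5), and at 519 CPM (497 to 540.5) against 39.4 CPM (36.2 to 42.8). Both were several fold higher in members of each library. Gpnmb, a lysosomal glycoprotein of lipid-loaded macrophages, was at 534 CPM against 62.2 CPM at 7 days, but at 341 CPM (326 to 357) against 268 CPM (256 to 281) at 3 days. Fabp5, a fatty acid binding protein, was likewise at 1860 CPM against 422 CPM at 7 days and at 1404 CPM against 972 CPM at 3 days. Saa3 and Marco thus set members apart at both days, while Gpnmb and Fabp5 did so mainly at 7 days. Within Xist cells and within Y-transcript cells, the log2 ratios at 3 days were 3.59 and 2.69 for Saa3, 1.14 and 3.25 for Marco, -0.52 and 0.24 for Gpnmb and 1.42 and 0.39 for Fabp5. At 7 days they were 4.69 and 2.95 for Saa3, 4.58 and 2.40 for Marco, 3.15 and 2.53 for Gpnmb and 1.98 and 2.18 for Fabp5. When both sides were limited to cells with C1qa, the log2 ratios of Gpnmb and Fabp5 at 3 days were -0.39 and -0.15.

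Marco was high in few cells. After each cell was thinned to 1000 UMIs, 13.3% (9.69 to 17.6) of 3-day members and 14.1% (10.4 to 18.6) of 7-day members held a Marco UMI, against 1.52% and 1.36% of Arg1-negative cells. Unthinned shares in members were 23.9% and 23.2%. Saa3 was widespread, in 84.8% (80.3 to 88.6) of thinned members at 3 days and 74.2% (68.8 to 79.0) at 7 days, against 20.8% and 20.5% of Arg1-negative cells and 1.80% and 2.94% of B cells. Fn1, which encodes fibronectin, was in 88.0% and 70.8% of members against 28.9% and 20.6% of Arg1-negative cells. Without thinning the member shares were 93.9% and 87.9% for Saa3 and 96.1% and 89.9% for Fn1.

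**Figure D2:**
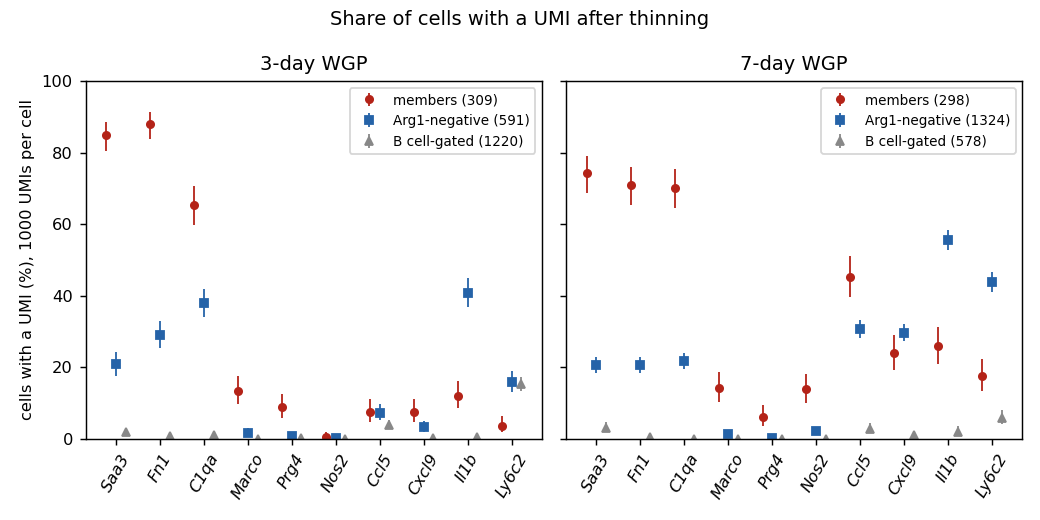
Share of cells with a UMI of each gene (%, y axis) after every cell was thinned to 1000 UMIs, in members, Arg1-negative gated cells and B cells of the 3-day and 7-day libraries, with 95% exact binomial intervals. Saa3 and Fn1 were detected in over 70% of members in both panels, and Nos2 reached 13.8% in 7-day members.

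A gene was counted as higher or lower when the log2 ratio of CPM, after 10 CPM was added to both sides, was at least 1 in size, among genes with a mean of at least 10 CPM. The genes of the rule were left out. At 3 days, 116 of 7549 genes were higher in members than in Arg1-negative cells (1.54%) and 236 were lower (3.13%). At 7 days, 187 of 7337 were higher (2.55%) and 116 lower (1.58%). Of 7175 genes compared at both days, 73 were higher at both, 84 lower at both and 4 opposite. The 4 were Lyve1, Selenop and Prtn3, lower at 3 and higher at 7 days, and Cxcl13, the reverse; Prtn3 was named after its values were seen. Scaling by TMM, which trims extreme genes, moved the 3-day ratios by 0.118 and changed the counts at 3 days to 163 higher and 204 lower.

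**Figure D3:**
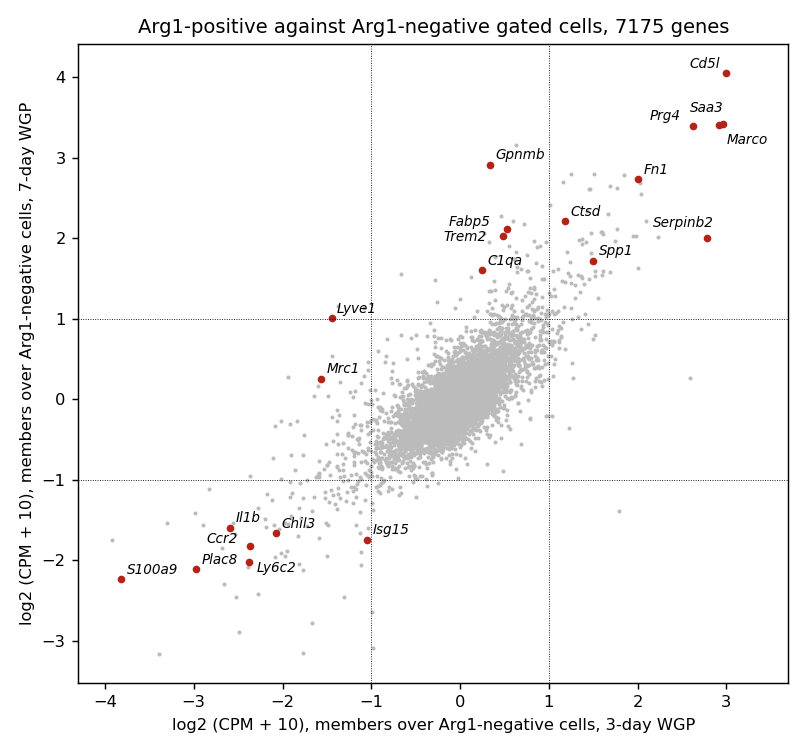
Log2 ratio of CPM + 10 in members over Arg1-negative gated cells, at 3 days (x axis) and 7 days (y axis), with 1 point per gene (7175) and named genes in red. Dotted lines mark a log2 ratio of 1 in size; Saa3, Marco, Cd5l and Prg4 lie at the upper right and S100a9, Plac8 and Ly6c2 at the lower left, while Gpnmb, Fabp5 and C1qa pass the line only at 7 days.

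Several other genes had large ratios in members at both days. Cd5l, a secreted scavenger-receptor protein of tissue macrophages, was at 693 CPM against 78.4 CPM at 3 days and at 207 CPM against 3.09 CPM at 7 days. Fn1 was at 5848 CPM against 1449 CPM and at 2956 CPM against 437 CPM. Both were higher in members at each day, and both had lower levels at 7 days than at 3 days on either side. Fabp7 (a fatty acid binding protein), Ctsk (the protease cathepsin K), F7 (coagulation factor VII), Rhoc and Cd36 (a receptor for oxidized lipids) were also higher at both days, with log2 ratios at 3 days of 2.03 for Fabp7, 2.03 for Ctsk and 1.76 for F7 and at 7 days of 2.69, 2.55 and 2.62. Prg4 (lubricin) had log2 ratios of 2.62 and 3.40 and Serpinb2 (plasminogen activator inhibitor 2) of 2.78 and 2.00.

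Slc7a2 encodes a transporter that carries arginine into macrophages. It was at 79.9 CPM (72.7 to 87.7) in 3-day members against 15.0 CPM (12.1 to 18.3), and at 128 CPM (118 to 139) in 7-day members against 10.1 CPM (8.46 to 11.9). It was the only gene of the arginine, polyamine and itaconate list that was higher in members at both days, of 15 compared. Arg2, the mitochondrial arginase, was at 10.4 CPM and 13.8 CPM in members and at 25.2 CPM and 21.8 CPM in Arg1-negative cells. The polyamine enzymes Odc1 (53.1 against 41.5 CPM at 3 days), Srm and Sms and the arginine-making Ass1 and Asl stayed under a log2 ratio of 1 in size. The list had a median of 0.02 at 3 days and -0.15 at 7 days, beside -0.05 and -0.03 over all genes.

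Nos2 was the second gene of that list to be higher in members, at 7 days only. It was at 159 CPM (148 to 172) in 7-day members against 35.4 CPM (32.3 to 38.6) in Arg1-negative cells. At 3 days it was at 3.75 CPM (2.32 to 5.74) against 4.17 CPM (2.75 to 6.06), too few UMIs for the comparison. Of 298 members at 7 days, 91 (30.5%, 25.4 to 36.1) held a Nos2 UMI in the same cell as Arg1, against 102 of 1324 Arg1-negative cells (7.70%, 6.33 to 9.27). By Arg1 count, the unthinned share was 19.2% (10.9 to 30.1) with 1 or 2 UMIs, 30.2% (19.2 to 43.0) with 3 to 9 and 35.8% (28.4 to 43.7) with 10 or more, at median depths of 10585, 10797 and 16991 UMIs. The Nos2 levels of these classes were 110.0, 80.4 and 195 CPM, which is not the order of the shares, so no order with Arg1 was read from them. At 1000 UMIs per cell, Nos2 was seen in 13.8% of members, 2.19% of Arg1-negative cells and 0 of 578 B cells, which allows a share of up to 0.519%. Members were 91 of the 193 Nos2-positive cells of the gate, and the highest cell held 14.7% of the Nos2 UMIs of members.

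Genes of lipid handling and the lysosome were higher in members at both days, and more of them at 7 days. At 3 days 6 of 20 passed the fold (Spp1, Fabp4, Lpl, Ctsd, Ctsk and Cd36) with a list median of 0.58, and at 7 days 15 of 20 passed with a median of 1.66. All 20 had a ratio above 0 at each day. Ctsd, the lysosomal protease cathepsin D, was at 4483 CPM against 1965 CPM and at 3788 CPM against 808 CPM. Trem2, a lipid-sensing receptor, was at 302 CPM against 66.4 CPM at 7 days, and at 214 CPM against 150 CPM at 3 days. Between the days, 18 of the 20 stayed under a log2 ratio of 1 in size within members. Summed over the list, members held 19107 CPM and 16105 CPM and Arg1-negative cells 11137 CPM and 5794 CPM.

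Of 17 scavenger and glucan receptor genes, the same 6 were higher in members at 3 and 7 days: Marco, Msr1, Cd36, Olr1, Clec4d and Itgam. Itgam, the αM chain of complement receptor 3 that binds β-glucan, was at 962 CPM against 385 CPM and at 647 CPM against 236 CPM. Clec4d, a C-type lectin that signals through Fcer1g, was at 431 CPM against 203 CPM and at 491 CPM against 156 CPM. Card9 and Syk, which carry the signal of the β-glucan receptor Dectin-1, had log2 ratios of -0.33 and -0.05 at 3 days and -0.36 and -0.14 at 7 days. Both stayed under a log2 ratio of 1 in size.

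Secreted acute-phase and matrix genes were higher in members for 7 of 19 compared at 3 days and 9 of 18 at 7 days. Timp2, an inhibitor of matrix proteases, was at 844 CPM against 413 CPM and at 634 CPM against 111 CPM. Vegfa, which drives vessel growth, was higher at 7 days only, at 128 CPM against 42.9 CPM. Mmp12 was counted at 3 days, but 83.9% of its 3-day UMIs lay in 1 cell, and the level without that cell was 13.8 CPM. Lcn2 and Tgfbi were lower at 3 days, Lcn2 at 5.54 CPM against 160 CPM. The part of neutrophil RNA in the Lcn2 difference was not tested.

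Of 23 glycolysis and hypoxia genes, 21 had a ratio above 0 at 3 days and 4 passed the fold (Pfkl, Pgk1, Ldha and Hilpda), with a median of 0.74. At 7 days 20 of 24 were above 0 and 2 passed (Pdk1 and Hilpda), with a median of 0.44. Hilpda, a lipid-droplet protein of the hypoxia response, was at 108 CPM against 29.3 CPM and at 154 CPM against 29.0 CPM. Of 15 antioxidant genes, 2 were higher and 1 lower at 3 days and 3 were higher and 0 lower at 7 days, with medians of 0.60 and 0.67. Hmox1 (heme oxygenase 1) and Prdx1 (peroxiredoxin 1) were higher at both days, Fth1 (ferritin heavy chain) at 7 days, and Slc7a11, the cystine importer, was lower at 3 days, at 78.5 CPM against 172 CPM. Transcription factors of macrophage activation had 0 genes past the fold of 17 compared at 3 days and 15 at 7 days. Cebpb, a factor of acute-phase genes, was at 1949 CPM against 1836 CPM at 3 days. Stat6, the factor that IL-4 and IL-13 activate, was at 83.3 CPM against 84.8 CPM.

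Most other genes known to respond to IL-4 and IL-13 did not pass the fold toward members. At 3 days Retnla, Chil3, Mrc1, Mgl2 and Clec10a were lower in members and Tgm2 was higher, of 11 compared. At 7 days Chil3 and Mgl2 were lower and Ccl24 higher. Mrc1, the mannose receptor CD206, was at 122 CPM against 379 CPM at 3 days and at 81.8 CPM against 66.9 CPM at 7 days. Retnla was at 130 CPM against 272 CPM at 3 days, with 37.4% of the member UMIs in 1 cell. Mrc1 is also among the resident macrophage markers and Chil3 among the Ly6C-high monocyte markers. The part of such cells among the Arg1-negative cells in these differences was not tested.

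Monocyte genes were lower in members at both days. Of 12 Ly6C-high monocyte markers, 7 were lower at 3 days and 7 at 7 days, among them Ly6c2, Ccr2, Plac8 and Chil3 at both, with medians of -1.94 and -1.42. Ccr2, the receptor that brings monocytes out of the bone marrow, was at 157 CPM against 850 CPM and at 244 CPM against 889 CPM. Il1b, the inflammatory cytokine, was at 255 CPM against 1592 CPM and at 601 CPM against 1832 CPM. At 1000 UMIs per cell it was seen in 11.97% of 3-day members against 40.8% of Arg1-negative cells, and in 25.8% against 55.5% at 7 days. The levels summed over members were thus below those of Arg1-negative cells for these genes at both days. Part of the members still held them. Without thinning, Ly6c2 was detected in 47.0% and Ccr2 in 35.2% of 7-day members, against 71.7% and 78.9% of Arg1-negative cells. MHC class II genes had medians of -0.96 and -0.77, with 0 of 8 above 0 at either day. The 8 conventional dendritic cell markers moved with them, summing to 14.8 CPM in members against 147.6 CPM at 3 days and to 44.6 CPM against 180.4 CPM at 7 days, and their part in the MHC class II difference was not tested. Arg1-negative cells of the gate also held neutrophil RNA. The 8 neutrophil markers summed to 6330 CPM at 3 days and 876 CPM at 7 days, against 575 CPM and 277 CPM in members. The part of neutrophil RNA in the S100a8, S100a9 and Retnlg differences, or in those of Il1b and Il1rn, was not tested.

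Resident macrophage genes differed in direction between the days. At 3 days 8 of 18 were lower in members (Mrc1, Lyve1, Cd163, Cd209f, F13a1, Gas6, Fcrls and Selenop) and 0 were higher. At 7 days 9 of 15 were higher (Lyve1, Folr2, Timd4, C1qa, C1qb, C1qc, Selenop, Igf1 and Apoe) and 0 were lower. The complement gene C1qa was at 1730 CPM in 3-day members and 2067 CPM in 7-day members, against 1458 CPM and 672 CPM in Arg1-negative cells. The members' own sum over the 18 genes was 14297 CPM at 3 days and 15249 CPM at 7 days, and that of Arg1-negative cells was 14291 CPM and 5542 CPM. Apoe, a lipid carrier, made up 7271 CPM and 6811 CPM of the members' sums. Gene by gene, 11 of 15 had a 3-day over 7-day ratio above 0 within members, with a median of 0.61, and Timd4 passed the fold. The sums alone cannot tell fewer cells of a type from less RNA per cell. At 1000 UMIs per cell, C1qa was seen in 37.9% of Arg1-negative cells at 3 days and 21.7% at 7 days. For Mrc1 these shares were 19.1% and 5.14%, for Lyve1 6.6% and 0.453%, and for Timd4 2.37% and 0.453%. In members they were 65.4% and 70.1% for C1qa and 9.39% and 6.04% for Mrc1. For Lyve1 they were 3.24% and 1.68% and for Timd4 3.88% and 0.671%. RNA per positive cell was not compared. The difference between the days was not tested.

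Members were split by their Arg1 count, which the rule also used, so the order of the classes is a description. Raw counts depend on depth, and low counts can come from free RNA. The part of either in this order was not tested. At 3 days Saa3 was at 2975 CPM with no Arg1 UMI, 12055 CPM with 1 or 2, 20590.2 CPM with 3 to 9 and 25405 CPM with 10 or more. At 7 days these levels were 1349, 5705, 11297 and 17771 CPM. Cells with 1 or 2 Arg1 UMIs thus lay between Arg1-negative cells and those with more, and Ly6c2 went the other way, from 419 to 56.1 CPM at 3 days and from 1069 to 157 CPM at 7 days. Marco at 7 days was as low with 1 or 2 Arg1 UMIs (24.99 CPM) as without Arg1 (39.4 CPM), and was at 684 CPM and 615 CPM above that. Lyz1 at 7 days was at 365 CPM without Arg1 and at 626, 1071 and 2222 CPM in the 3 classes of members. Gpnmb and Fabp5 did not follow this order at 3 days, where Fabp5 was highest with 1 or 2 Arg1 UMIs (2713 CPM) and lower with 10 or more (1101 CPM). At the threshold itself, cells with 1 Arg1 UMI had Saa3 at 10591 CPM at 3 days and 2710 CPM at 7 days. Cells with 2 had it at 15426 and 12212 CPM.

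**Figure D4:**
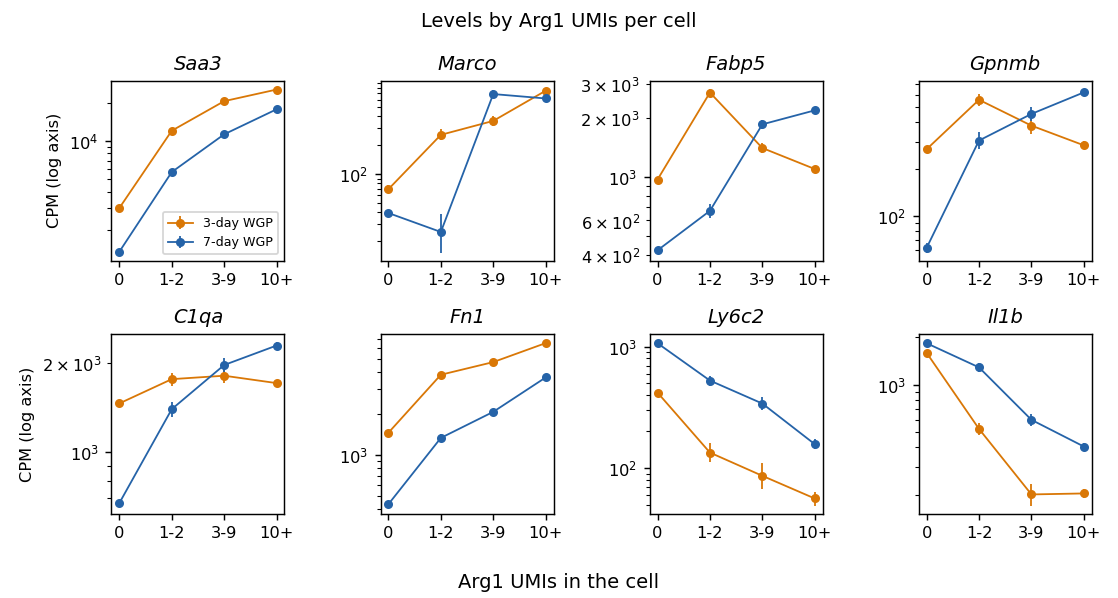
CPM of 8 genes (log axis, with 95% exact Poisson intervals) in gated cells with 0, 1 to 2, 3 to 9 and 10 or more Arg1 UMIs, at 3 days (orange) and 7 days (blue). Saa3 and Fn1 were higher and Ly6c2 lower in each class with more Arg1, and Fabp5 and Gpnmb had different shapes at the 2 days.

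Some members carried genes of large peritoneal macrophages, the Gata6-dependent cells that fill the peritoneal cavity. At least 3 of the 11 markers were detected in 65 of 309 members at 3 days (21.0%, 16.6 to 26.0) and 42 of 298 at 7 days (14.1%, 10.4 to 18.6). In Arg1-negative cells this was 18 of 591 (3.05%, 1.81 to 4.77) and 13 of 1324 (0.982%, 0.524 to 1.67). After thinning to 3000 UMIs, at least 2 markers were detected in 15.9% (11.96 to 20.5) and 10.2% (6.92 to 14.3) of members and in 3.53% and 0.740% of Arg1-negative cells. Among 3-day members, 12 of 19 Xist cells and 45 of 219 Y-transcript cells held at least 3 markers, and at 7 days 19 of 122 and 20 of 121 did. Summed over the list, the markers were at 879 CPM in members and 246 CPM in Arg1-negative cells at 3 days and at 401 CPM and 58.3 CPM at 7 days. Wt1 was at 0.72 CPM in 3-day members and 0 at 7 days. Without thinning, Gata6 itself was detected in 30 of 309 members at 3 days and 15 of 298 at 7 days. In Arg1-negative cells it was detected in 9 of 591 and 9 of 1324. Of the 219 Y-transcript members at 3 days, 18 held Gata6. Icam2, also among the markers, was in 138 and 87 members, and in 347 of 1220 and 127 of 578 B cells. Which markers made up the 3 was not tested, so the count alone does not identify the cell type.

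Members with and without these markers differed among themselves. In the 65 cells with at least 3 markers at 3 days, Saa3 was at 29175 CPM, Marco at 1155 CPM and Arg1 at 2413 CPM, and in the 111 cells with none these were at 15559, 271 and 1274 CPM. At 7 days the 42 cells with at least 3 had Saa3 at 24167 CPM and Marco at 995 CPM, and the 152 cells with none had 10142 and 378 CPM. Gpnmb went the other way, at 121 CPM with the markers and 519.8 CPM without at 3 days, and at 310.0 and 699 CPM at 7 days. Nos2 at 7 days was at 52.1 CPM with the markers and 224 CPM without. Slpi, a secreted protease inhibitor that was named after its values were seen, was at 3273 CPM with the markers and 514 CPM without at 3 days. The cells with the markers were deeper, with a median of 21700 UMIs against 12767 UMIs at 3 days and 18358 UMIs against 11104 UMIs at 7 days; the part of depth in these differences was not tested.

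Between the days, 32 of 7343 genes were higher in 3-day members (0.436%) and 64 were higher in 7-day members (0.872%). Of these, 19 and 57 had the same sign within Xist cells and within Y-transcript cells. The genes with the largest differences toward 7 days included chemokines and interferon-inducible genes. Cxcl10, a chemokine for T cells, was at 39.3 CPM (34.3 to 44.9) in 3-day members and 519 CPM (498 to 541) in 7-day members. Cxcl9 was at 97.4 CPM and 799 CPM, Ccl5 at 200 CPM and 2048 CPM, and the interferon-inducible GTPase Iigp1 at 39.9 CPM and 452 CPM. Nos2 had a log2 ratio of -3.62, which rests on 21 UMIs in 3-day members, and of -3.57 without the highest cell of each library. The ratios within Xist cells and within Y-transcript cells were -4.35 and -3.23 for Nos2, -6.08 and -3.78 for Ccl5 and -3.23 and -3.21 for Cxcl10. For Cxcl9 they were -6.54 and -2.61 and for Iigp1 -3.20 and -3.06. The 3-day Xist side rests on 19 cells, with 0 UMIs of Nos2 and Cxcl9, 3 of Ccl5 and 13 of Iigp1. It held 16 UMIs of Cxcl10, all in 1 cell. At counts this low the size of a ratio depends on the 10 CPM added.

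At 1000 UMIs per cell, Ccl5 was seen in 7.44% (4.78 to 10.96) of 3-day members and 45.3% (39.6 to 51.1) of 7-day members, and in 24.6% and 73.5% without thinning. B cells gave 3.85% and 2.77%. Lyz1, an isoform of lysozyme known from Paneth cells, was at 345 CPM and 1728 CPM, and Plac8 at 203 CPM and 764 CPM. Ly6a, Ly6i, Serpina3g, Gbp4 and Socs1 (a feedback inhibitor of cytokine signaling) were also among the 12 genes highest at 7 days over 3 days, with log2 ratios of -3.14 to -2.19. Arg1-negative cells had higher levels at 7 days for the same genes, as with Cxcl10 at 48.6 and 1081 CPM and Cxcl9 at 77.3 and 1402 CPM. In those cells Nos2 was at 4.17 and 35.4 CPM and Lyz1 at 224 and 365 CPM.

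Of 15 interferon response genes, 8 were higher at 7 days, among them Irf1, Gbp2, Gbp5, Cxcl9 and Cxcl10, and 0 at 3 days, with a median of -1.03 beside 0.05 over all genes. The 7 remaining genes included Ifit1 and Ifit2, which respond mainly to type I interferon, at 24.7 and 29.2 CPM and at 24.1 and 30.6 CPM. Of 7 MHC class II genes, 6 were higher at 7 days, with a median of -1.18. H2-Ab1 was at 1772 CPM and 4035 CPM, with log2 ratios of -0.77 in Xist cells and -1.39 in Y-transcript cells, and Ciita, the master regulator of the class, at 44.5 CPM and 102 CPM. Other marker lists moved in the same direction. Of 12 Ly6C-high monocyte markers, Ly6c2, Plac8 and Ly6i were higher at 7 days and 0 at 3 days, with a median of -0.42, and the dendritic cell marker Batf3 was at 10.4 CPM and 31.7 CPM. Their part in the MHC class II difference was not tested. Of 15 inflammatory activation genes, 3 were higher at 7 days (Il1b, Nos2 and Ptgs2). Within Xist cells, the list medians for interferon and MHC class II genes were -1.64 and -0.74.

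The promoters of genes that differed are shown for the motifs they hold, because Cxcl10, Gbp5 and Igtp were higher together in 7-day members and Saa3 in members of both days. Windows run from 250 bases before the start site to 50 after and are from RefSeq (GRCm38.p6). Motifs were searched on both strands. Capitals mark an ISRE-type match (GAAA, any 2 bases, GAAA) in Cxcl10, GAS-type (TTCNNNGAA) and ISRE-type matches in Gbp5 and Igtp, and a C/EBP-type match (TTGCNNAA) in Saa3. Saa3 also holds an ISRE-type match before its start, left in lower case.
Saa3, chr7:46715627-46715926, minus strand: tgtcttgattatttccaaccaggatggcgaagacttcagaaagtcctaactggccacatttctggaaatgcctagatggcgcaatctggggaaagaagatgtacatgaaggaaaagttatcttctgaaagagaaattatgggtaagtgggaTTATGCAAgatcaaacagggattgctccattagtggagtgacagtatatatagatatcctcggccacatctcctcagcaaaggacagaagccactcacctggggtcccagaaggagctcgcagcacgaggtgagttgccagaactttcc
Cxcl10, chr5:92348840-92349139, minus strand: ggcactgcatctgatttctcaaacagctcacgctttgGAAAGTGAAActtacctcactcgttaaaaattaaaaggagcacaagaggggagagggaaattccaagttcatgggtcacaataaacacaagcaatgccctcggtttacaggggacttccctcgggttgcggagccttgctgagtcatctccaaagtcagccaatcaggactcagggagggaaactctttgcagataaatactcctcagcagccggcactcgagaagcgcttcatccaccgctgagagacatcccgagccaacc
Gbp5, chr3:142496684-142496983, plus strand: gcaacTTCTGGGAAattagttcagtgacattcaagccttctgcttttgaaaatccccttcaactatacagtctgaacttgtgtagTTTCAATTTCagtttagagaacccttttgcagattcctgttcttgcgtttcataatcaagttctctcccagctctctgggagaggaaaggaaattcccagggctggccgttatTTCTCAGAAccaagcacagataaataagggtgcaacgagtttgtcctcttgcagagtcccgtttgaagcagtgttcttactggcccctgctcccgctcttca
Igtp, chr11:58199306-58199605, plus strand: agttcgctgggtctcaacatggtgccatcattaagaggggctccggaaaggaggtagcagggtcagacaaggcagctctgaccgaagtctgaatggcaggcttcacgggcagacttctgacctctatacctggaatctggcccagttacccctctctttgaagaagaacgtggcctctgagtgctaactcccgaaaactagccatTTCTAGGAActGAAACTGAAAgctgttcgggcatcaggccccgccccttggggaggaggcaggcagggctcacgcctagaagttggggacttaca

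Of all 32851 promoters in the table, 3.44% held an ISRE-type, 8.30% a GAS-type and 10.8% a C/EBP-type match. In the 58 promoters of genes higher in 7-day members these shares were 19.0%, 22.4% and 25.9%. In the 31 promoters of genes higher in 3-day members they were 6.45%, 9.68% and 25.8%. In the 73 promoters of genes higher in members than in Arg1-negative cells at both days they were 8.22%, 9.59% and 13.7%. The 3 motifs did not overlap in the promoters shown. The 32851 promoters include those of genes that were not compared here, and shares among promoters of compared genes only were not computed. Rnase6, Serpina3f and Serpinb2 entered with more than 1 promoter each. A match is a description of the letters and not a site of binding.

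The genes higher in 3-day members were fewer and rested more on single cells. Pf4 (platelet factor 4, also made by macrophages) was at 666 CPM (645 to 688) at 3 days and 172 CPM (160.0 to 185) at 7 days. Cd5l was at 693 CPM and 207 CPM, Lpl (lipoprotein lipase) at 531 CPM and 214 CPM, and Colgalt1, a collagen galactosyltransferase, at 338 CPM and 119 CPM. Their log2 ratios within Xist cells and within Y-transcript cells were 3.29 and 2.39 for Pf4, 1.89 and 2.84 for Cd5l, 1.11 and 1.91 for Lpl and 0.23 and 1.27 for Colgalt1. No single cell held more than 15.0% of the UMIs of these 4 genes in either library. Cxcl13 was at 271 CPM and 1.84 CPM, but 70.0% of the 3-day UMIs lay in 1 cell, and without the highest cell of each library it was at 81.7 CPM and 0.93 CPM. A single cell also held 95.4% of the 3-day Gzma UMIs and 67.3% of those of S100a9. Without it Gzma was at 0.90 CPM.

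**Figure D5:**
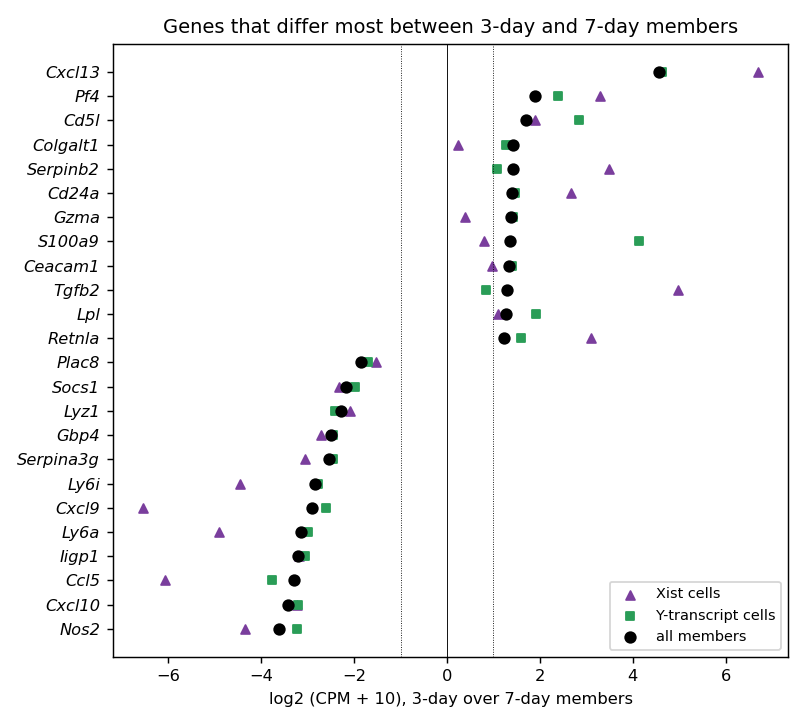
Log2 ratio of CPM + 10 in 3-day over 7-day members for the 24 genes with the largest ratios in each direction and the same sign in both classes, in all members (black), in Xist cells (purple, 19 and 122 cells) and in Y-transcript cells (green, 219 and 121 cells). Among the black points, Nos2, Cxcl10 and Ccl5 lie farthest to the left and Cxcl13 farthest to the right.

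The peritoneal markers also differed, with 4 of 9 higher at 3 days (Prg4, Timd4, Serpinb2 and Lrg1) and 0 at 7 days. Prg4 was at 299 CPM and 112 CPM. Within Xist cells Prg4 was at 2580 CPM and 50.4 CPM, and within Y-transcript cells at 169 CPM and 177 CPM, with log2 ratios of 5.42 and -0.07. Serpinb2 kept its sign in both, at log2 ratios of 3.50 and 1.07. Lipid handling genes had a median of 0.35 with Spp1 and Lpl higher at 3 days. Spp1, which encodes osteopontin, had opposite signs in the classes. It was at 3.101 and 174 CPM in Xist cells and at 492 and 114 CPM in Y-transcript cells. Its 3-day value in Xist cells rests on 1 UMI. Arg1 itself was at 471 CPM and 1999 CPM in Xist cells and at 1862 CPM and 1591 CPM in Y-transcript cells.

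Scavenger and glucan receptor genes, glycolysis genes, antioxidant genes, NADPH oxidase subunits and the transcription factors had 0 genes past the fold between the days, of 17, 24, 15, 6 and 16 compared. Saa3 was at 22591 CPM and 14423 CPM, Marco at 611 CPM and 519 CPM, Fabp5 at 1404 CPM and 1860 CPM, and Gpnmb at 341 CPM and 534 CPM, each under a log2 ratio of 1 in size. Markers of other cell types were also summed in members. The 8 T and NK cell markers summed to 37.7 CPM at 3 days and 5.29 CPM at 7 days, of which Gzma was 19.5 CPM and 1.38 CPM, the 7 B and plasma cell markers to 81.5 CPM and 36.3 CPM, and the 12 acinar markers to 86.9 CPM and 109 CPM. In the free RNA the acinar markers summed to 6480.0 CPM and 12591 CPM. The 7 stromal and endothelial markers summed to 96.5 CPM and 32.4 CPM, and 1 cell held 97.5% of the 3-day Dcn UMIs. The erythroid genes summed to 1035 CPM and 2236 CPM, and Hbb-bs and Hbb-bt, which encode globin, were among the genes counted as higher at 7 days; the part of erythroid RNA in other differences was not tested.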

How the data were processed

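Live CD45+ pancreas cells were captured by the authors with 10x Genomics 3' v3.1 chemistry and counted with Cell Ranger 3.1.0 on mm10. The deposited values are UMI counts for 31053 genes in 6794880 barcodes per library, with no normalization. The number of columns of values not used was 0. Groups came from the sample labels, 1 library each.

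Barcodes with at least 1000 UMIs and at most 30% mitochondrial UMIs were kept. Members were found by the rule above, in Python 3.11.15 (numpy 2.4.6, scipy 1.17.1, pandas 2.3.3). Doublets were treated only by the Cd79a, Cd3e and Cd3d limits. Scrublet (scanpy 1.11.5) marked 0, 1 and 1 of 5249, 4879 and 4174 barcodes, too few to have worked, so removing its highest scores was an alternative. UMIs were summed over the members of a library and given as CPM, with exact Poisson or binomial intervals at 95%. For shares, each cell was thinned to 1000 UMIs and 0 cells were lost by it. The ratios and intervals were tested on simulated data. Named genes were the given markers, the 12 most extreme per direction and comparison with the same sign in both classes or libraries, and list genes, of which the text names a choice; ribosomal, mitochondrial, sex-linked, immunoglobulin, acinar and erythroid genes were passed over in the ranking. The gene lists held 365 symbols, of which 3 had no match. Members, lists and motifs were chosen with earlier results of these data known. Promoter windows were matched by symbol, for 58 promoters from the 64 genes higher at 7 days and 31 from the 32 higher at 3 days. Some genes of the lists are not reported here by name.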

Additional observations from a re-analysis of the deposited data

Results flagged for a closer look

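Between 3-day and 7-day members, 11 listed genes had log2 ratios of at least 1 in size and opposite sign in Xist cells and Y-transcript cells. The difference was not tested, and the 3-day Xist value rests on 19 cells. Of the peritoneal markers, 2 were higher at 3 days in Xist cells and lower in Y-transcript cells, Alox15 (15-lipoxygenase) at 5.78 and -1.57 and Selp (P-selectin) at 3.74 and -1.02. Cell cycle genes had the same pattern, with Ube2c at 2.51 and -2.23, Top2a at 2.10 and -1.83, Birc5 at 1.57 and -1.32, Stmn1 at 1.47 and -1.83 and Mki67 at 1.46 and -1.34. The reverse held for Spp1 (-3.81 and 2.01), Mmp12 (-1.65 and 3.04), Cxcl1 (-1.54 and 1.08) and S100a8 (-1.39 and 1.76). In 3-day members 83.9% of Mmp12 UMIs and 50.9% of S100a8 UMIs lay in 1 cell. In 3-day Xist cells, Mki67 had 26 UMIs in 3 cells and Top2a 34 UMIs in 4 cells. Whether the cell cycle genes lay in the same cells was not tested. Spp1 had 1 UMI and Mmp12 had 0 in 3-day Xist cells. The Y-transcript values of Alox15 and Selp also rest on few cells. Alox15 had 44 UMIs in 9 of these cells at 3 days and 86 UMIs in 8 at 7 days. Selp had 30 UMIs in 10 cells and 42 UMIs in 13.

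Against Arg1-negative cells, 3 named genes had opposite signs at the 2 days, also untested. Lyve1, a receptor of resident macrophages, was at -1.45 at 3 days and 1.01 at 7 days, Selenop at -1.08 and 1.13, and Cxcl13, which 1 cell carried at 3 days, at 1.79 and -1.38.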

How the results depend on the processing

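No paired analysis was possible because each group is 1 library, so leaving out a library was not possible either. Requiring 3 Arg1 UMIs gave member shares of 0.09526%, 5.001% and 5.39% of kept barcodes and 0.468%, 27.1% and 13.9% of the gate (PBS, 3 and 7 days). Requiring 3 UMIs of Csf1r and Adgre1 gave 40.7% and 20.9% of the gate at 3 and 7 days, and a minimum of 3000 UMIs gave 7.99% of kept barcodes at 3 days. Counts of genes higher and lower moved with the value added to CPM. With 1 CPM they were 80 and 107 between the days, 204 and 373 against Arg1-negative cells at 3 days and 320 and 206 at 7 days; with 50 CPM they were 14 and 33, 41 and 78, and 68 and 28. Cells of 5000 to 20000 UMIs gave 50 genes higher at 3 than at 7 days, and Y-transcript cells gave 59. Xist cells, with 19 at 3 days, gave 360 and 403 between the days, 249 and 456 against Arg1-negative cells at 3 days, and a median above 0 for 4 and 6 of the lists with at least 5 genes compared (12 and 11 with all cells). With C1qa required in both groups, 74 genes were lower in 7-day members than in Arg1-negative cells.

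Of the values for single genes, lists and shares, 972 left the interval of the main value, 2028 stayed in it and 8 changed sign after passing the fold. The changes of sign were in 3 named genes that 1 cell carried. Genes ranked between the days were chosen for the same sign in Xist cells and Y-transcript cells, so these settings could not reverse them. Listed genes with opposite signs in the classes are given above. Gzma between the days (1.37 in all members) was -0.10 with 3 Arg1 UMIs, -0.035 with 3 UMIs of Csf1r and Adgre1, -0.087 with 10 Arg1 UMIs and -0.0035 without the highest cell of each library. S100a9 between the days (1.35) was -0.17 with at most 30000 UMIs and -1.24 as a mean over cells. Dcn against Arg1-negative cells at 3 days (-1.77) was 2.08 with 3 UMIs of Csf1r and Adgre1 and 1.99 with C1qa required. The alternatives on C1qa, 10 Arg1 UMIs and the highest cell were chosen after seeing the data. Depth limits Nos2 at 3 days, with 21 UMIs in 309 members, and PBS, with 11 members.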

Other observations

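Chemokine genes of members moved in different directions against Arg1-negative cells. Cxcl1, a neutrophil attractant, was at 111 CPM against 36.9 CPM at 3 days and at 55.2 CPM against 12.4 CPM at 7 days, while Ccl8 was at 85.8 CPM against 360.2 CPM and at 11.3 CPM against 68.4 CPM. Of 15 chemokines compared at 3 days, 2 were higher and 3 lower, and of 14 at 7 days, 4 were higher and 2 lower. Cxcl3, another neutrophil attractant, was at 64.5 CPM in 3-day members and 2.76 CPM in 7-day members. Of 11 inhibitory receptors and ligands at 3 days, Il1rn (the antagonist of the IL-1 receptor) was lower, at 45.2 CPM against 147.7 CPM, and 0 of 12 passed the fold at 7 days. Between the days, Il18bp, which binds IL-18, was higher at 7 days, at 53.3 CPM and 138.6 CPM.

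Cell cycle genes were lower in 3-day members for 5 of 8 compared (Top2a, Birc5, Cdk1, Stmn1 and Ube2c), with a median of -1.20. Of the 8, 2 had a ratio above 0 at 3 days, and 0 of 8 passed the fold at 7 days. Without thinning, Mki67 was detected in 20.7% of 3-day members and 6.77% of Arg1-negative cells, at median depths of 17265 and 10779 UMIs. The summed values do not give the share of cells in cycle. Dissociation stress genes had medians of -0.61 and -0.52 against Arg1-negative cells and -0.06 between the days. Ptges, which makes prostaglandin E2 and was named after its values were seen, was at 201 CPM against 34.7 CPM at 3 days and at 100.2 CPM against 17.3 CPM at 7 days.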
